A study of Homo sapiens with 6 samples.

Results

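The trypsinogen genes PRSS1, PRSS2, PRSS3 and PRSS3P2, the protease inhibitors SPINK1, SPINK2 and SERPINA1 and the trypsin-activated receptor gene F2RL1 were followed on 6 expression arrays of K562 cells. All probe sets that the array annotation pairs with these 8 genes were taken, which gave 12 of the 54675 probe sets on the array. Of these, 11 are annotated to 1 gene and 1 is shared by PRSS1 and PRSS2. PRSS2 and PRSS3 have 2 probe sets each, SERPINA1 has 4, and PRSS3P2, SPINK1 and SPINK2 have 1 each. F2RL1 is not listed in the annotation used here, so it has no value below. The genes were picked because the trypsinogen probe sets were among those with the largest group differences in these same arrays. Their group differences are therefore given as a description, without a test.

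K562 is an established human line derived from a chronic myeloid leukemia. The 2 control arrays came from K562 cells stably transfected with the empty pCDNA vector (KpCDNA), and the 4 others from K562 cells stably transfected with the pCDNA-CTCF expression vector (KCTCF-D11). No other treatment was applied to either. CTCF is a zinc finger protein that binds insulators and anchors chromatin loops. All CTCF arrays are of the one named transfectant and all controls of one empty vector line, so CTCF and properties of either line cannot be told apart. The labels do not say whether replicates were separate cultures, so the spread between them may be technical. In RNA from whole cultures, fewer cells that express a gene and less of its RNA per cell cannot be told apart.

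Trypsinogens are the inactive precursors of trypsin, the digestive serine protease, and are known mainly from the acinar cells of the exocrine pancreas. The intestinal protease enteropeptidase (TMPRSS15) removes a short activation peptide, and trypsin then activates further zymogens. PRSS1 encodes cationic trypsinogen, PRSS2 anionic trypsinogen and PRSS3 mesotrypsinogen, a form that resists the usual trypsin inhibitors, while PRSS3P2 is a transcribed pseudogene copy. SPINK1 encodes the Kazal-type inhibitor that blocks trypsin inside the pancreas, SPINK2 a related inhibitor known from testis, and SERPINA1 alpha-1-antitrypsin, a serpin of blood plasma. F2RL1 encodes protease-activated receptor PAR2, which trypsin cleaves on the cell surface. PRSS1 and PRSS2 lie inside the T-cell receptor beta locus on chromosome 7, and PRSS3 lies on chromosome 9.

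The promoter windows of the 3 protein-coding trypsinogen genes are shown to show how alike these copies are around their starts. Each window covers 250 bases before and 50 bases after the annotated start in RefSeq (GRCh38.p14), read on the gene's strand. Capitals mark an E-box, CACCTG. They also mark the core letters of a TATA box, which are TATAA.
PRSS1 (chr7:142749222-142749521, + strand): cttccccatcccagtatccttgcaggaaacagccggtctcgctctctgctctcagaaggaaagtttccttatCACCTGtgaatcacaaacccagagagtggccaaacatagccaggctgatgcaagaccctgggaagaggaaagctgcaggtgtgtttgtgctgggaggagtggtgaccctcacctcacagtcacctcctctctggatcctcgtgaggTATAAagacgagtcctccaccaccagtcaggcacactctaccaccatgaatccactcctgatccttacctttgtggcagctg
PRSS2 (chr7:142770720-142771019, + strand): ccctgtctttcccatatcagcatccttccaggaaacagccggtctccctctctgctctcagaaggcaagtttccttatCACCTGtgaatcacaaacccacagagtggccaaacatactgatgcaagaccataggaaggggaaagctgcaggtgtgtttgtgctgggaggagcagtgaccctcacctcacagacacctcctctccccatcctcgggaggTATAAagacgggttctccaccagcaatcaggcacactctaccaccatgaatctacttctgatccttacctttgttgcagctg
PRSS3 (chr9:33795311-33795610, + strand): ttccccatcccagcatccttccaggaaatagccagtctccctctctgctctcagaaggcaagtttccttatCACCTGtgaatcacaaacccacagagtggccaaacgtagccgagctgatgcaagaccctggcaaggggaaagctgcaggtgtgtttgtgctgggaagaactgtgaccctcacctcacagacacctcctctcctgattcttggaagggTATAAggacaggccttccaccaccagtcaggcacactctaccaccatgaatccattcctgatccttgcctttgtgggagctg

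The PRSS1 and PRSS2 windows were 87.9% identical in a global alignment, those of PRSS1 and PRSS3 89.0%, and those of PRSS2 and PRSS3 85.7%. The 12 pairings of these windows with the first windows of SPINK1, SPINK2, SERPINA1 and F2RL1 gave 42.3% to 50%. The letters TATAA begin 32 bases before the start in each of PRSS1, PRSS2 and PRSS3, and they occur on either strand in 20.4% of the 35116 windows of all genes. On the gene's strand CACCTG begins 178, 172 and 179 bases before the start of PRSS1, PRSS2 and PRSS3, and 20.6% of all windows hold it on either strand. The reverse complement of CACCTG begins 103, 103 and 104 bases before these starts. Windows of SPINK1, SERPINA1 and F2RL1 hold CACCTG too, so 6 of the 9 windows of these genes have it on either strand. The GATA letters AGATAA occur on either strand in 10.3% of all windows and in 0 of the 9 windows of these genes. A match is a description of letters, and a missing match says only that the letters are not in this window.

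The arrays were split into 2 sets that cross the groups, by clustering on 45 spike-in control probe sets. The split into 2 was set by the method, and the labels name no batch, so what the sets reflect is not known. Empty vector array 1 and CTCF array 4 form the smaller set, and empty vector array 2 and CTCF arrays 1 to 3 the larger. Across human probe sets, not independent of each other, Pearson correlations of arrays were 0.966 to 0.991 within a set (7 pairs) and 0.877 to 0.907 between sets (8 pairs). Differences are therefore given as the group coefficient of a limma fit to log2(intensity + 16) with the array set as a block, beside the differences within each set. CTCF itself had intensities of 457 and 634 in the controls, against 1311, 1614, 1332 and 1332 with CTCF. Over all probe sets 1.86% passed an adjusted p of 0.05 (1.32% lower and 0.538% higher). CTCF rose by 1.29 ± 0.16 on the log2 scale (SE; limma, Benjamini-Hochberg adjusted p = 0.0288, and 0.0476 to 0.398 with 1 array left out, under 0.05 only without CTCF array 1). Without the array set block its adjusted p in limma was 0.199. Of the erythroid and K562 markers, 10 of 10 measured genes, such as GATA1, TAL1 and HBZ, lay above the array median on every array. HBZ, for the embryonic zeta globin, was the 1 of the 10 that passed and rose by 1.58 on the log2 scale (SE 0.13, limma adjusted p = 0.0166, and 0.128 without the array set block). With 1 array left out its call held only without CTCF array 1. Of 7 measured megakaryocyte markers 0 passed on their brightest probe set, and their summed intensity was 267 to 384 in the controls, against 176 to 298 with CTCF. Among these ITGA2B, an integrin of platelets named after its values were seen, had -0.82 ± 0.21 (limma adjusted p = 0.117), with -0.30 and -1.17 within the smaller and larger sets. Of its 4 probe sets 1 passed (limma adjusted p = 0.0475). That call was lost without the array set block (limma adjusted p = 0.878) and with any 1 CTCF array left out.

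**Figure D1:**
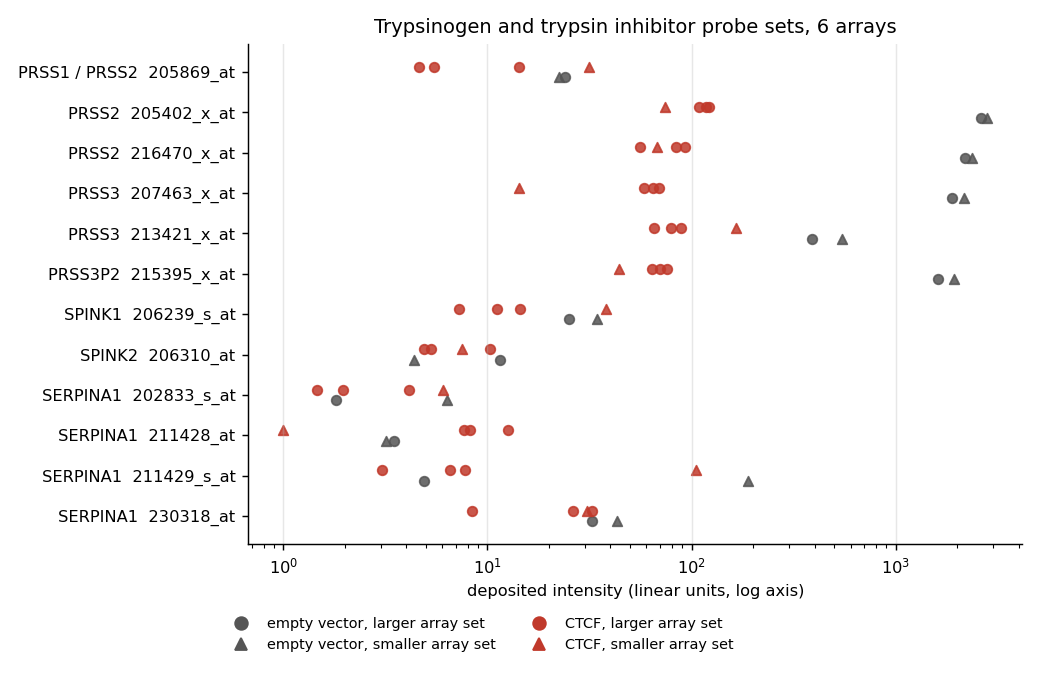
Deposited intensity (linear units on a log axis) of the 12 probe sets on each of the 6 arrays, with empty vector arrays in grey, CTCF arrays in red and the smaller array set as triangles. The 5 probe sets annotated to PRSS2, PRSS3 or PRSS3P2 alone are lower in every CTCF array than in every empty vector array, while the others overlap or nearly touch.

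Signal from the trypsinogen family was high in the empty vector cells and low in the CTCF cells. The first PRSS2 probe set (205402_x_at), whose target is the RefSeq transcript of PRSS2, read 2804 and 2607 in empty vector arrays 1 and 2. It read 122, 109, 117 and 74.2 in CTCF arrays 1 to 4. The groups lay far apart, and CTCF array 4, of the smaller set, was the lowest of all. Group means were 2706 ± 139 (SD, n = 2) and 106 ± 21.7 (SD, n = 4), a log2 difference of -4.57 ± 0.18 (SE), which is 23.8-fold lower. Within the smaller and larger array sets the difference was -4.97 and -4.31.

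The second PRSS2 probe set (216470_x_at) showed nearly the same profile. It read 2374 and 2181 in the controls, against 92.7, 84.2, 55.8 and 67.6 with CTCF. The log2 difference was -4.68 ± 0.20, or -4.84 inside the smaller set and -4.58 inside the larger. The probe set of the pseudogene PRSS3P2 (215395_x_at) read 1927 and 1615 in the controls, against 70.1, 76.1, 63.9 and 44.1 with CTCF. Its log2 difference was -4.55 ± 0.20, with -5.01 and -4.25 within the sets. Once each was centred on its own mean over the 6 arrays, the PRSS3P2 and first PRSS2 profiles differed by a root mean square of 0.10 on the log2 scale, the closest pair among the 5 trypsinogen probe sets.

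For PRSS3, the mesotrypsinogen gene, the 2 probe sets gave unlike profiles. The first (207463_x_at), designed on the RefSeq transcript of PRSS3, read 2169 and 1881 in the empty vector arrays. It read 65.0, 69.6, 58.2 and 14.2 in CTCF arrays 1 to 4, so that array 4 stood well below the other three. Its log2 difference was -5.21 ± 0.35, or -6.18 inside the smaller set and -4.57 inside the larger. The second (213421_x_at) read 548 and 387 in the controls, against 79.6, 65.2, 88.9 and 165 with CTCF. Here array 4 was the highest of the CTCF arrays, and the log2 difference was -1.92 ± 0.17, or 3.79-fold lower, with -1.64 and -2.11 within the smaller and larger sets. The profiles of these 2 PRSS3 probe sets differed by a root mean square of 1.61, the widest pair among the 5.

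Of the signal in the empty vector array of the same array set, the CTCF arrays held 0.657% to 4.71% on the 4 probe sets 205402_x_at, 216470_x_at, 207463_x_at and 215395_x_at, and 16.8% to 30.1% on 213421_x_at. All 5 probe sets had non-overlapping groups with the CTCF arrays lower, an order found in 7.18% of the 54613 tested probe sets, and all 5 were lower by at least 2-fold, as were 1.77% of all. Because the genes were picked from this contrast, nothing is read from these counts. Among the 54613 coefficients the 4 probe sets held places 1, 3, 5 and 6 from the most negative, and 213421_x_at held place 120. The median coefficient over all probe sets was -0.02. The suffix of all 5 names marks probe sets with probes that match several transcripts, so which of the near-identical copies gave the signal is uncertain, and PRSS2, PRSS3 and PRSS3P2 are not independent readings.

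In the authors' deposited table, a selection of 768 probe sets, appear the same 5 trypsinogen probe sets and none of the other 7. The authors' deposited table gives a signed fold change of -38.69 for the first PRSS3 probe set, with bounds of -26.47 and -68.37, the second largest of the table's 457 falls. For 216470_x_at, 215395_x_at and 205402_x_at the authors' deposited table gives -30.05, -26.79 and -25.18, places 6, 8 and 9. For the second PRSS3 probe set the authors' deposited table gives -5.14, with wide bounds of -2.54 and -22.43. In the authors' deposited table the bounds nearest to 0 for 205402_x_at, 216470_x_at and 215395_x_at were -17.65, -20.39 and -18.77.

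The 1 probe set annotated to PRSS1, the main human trypsinogen, showed no such signal, and it is not specific to PRSS1. The probe set shared by PRSS1 and PRSS2 (205869_at), whose target is the RefSeq transcript of PRSS1, read 22.5 and 23.9 in the controls, against 4.60, 5.49, 14.2 and 31.4 with CTCF. All 6 values lay below the median of their array, which was 28.8 to 34.2, and the groups overlapped because CTCF array 4 was the highest of all. The log2 difference was -0.33 ± 0.29, or 0.30 inside the smaller set and -0.75 inside the larger, so the sets differed in direction. The deposited values carry no detection call, so a value below the median does not show whether the transcript is present. The 2 probe sets annotated to PRSS2 alone read 2181 to 2804 in the controls, unlike this shared one. These probe sets therefore do not show which of PRSS1 and PRSS2 was expressed.

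**Figure D2:**
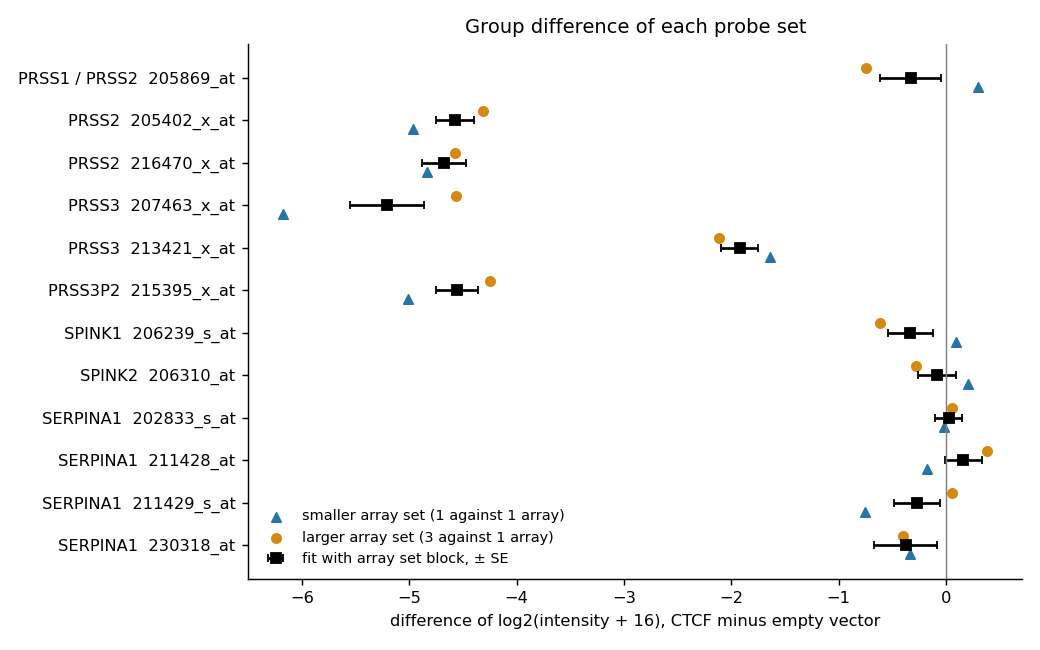
Difference of log2(intensity + 16), CTCF minus empty vector, for the 12 probe sets, with the blocked coefficient ± SE (black squares) and the difference within the smaller (blue triangles) and larger (orange circles) array sets. The 5 single-gene trypsinogen probe sets lie between -5.21 and -1.92 and the other 7 between -0.37 and 0.16.

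The inhibitors read at most 42.9 on every array, apart from 1 SERPINA1 probe set on the 2 arrays of the smaller set. SPINK1, the pancreatic trypsin inhibitor, read 34.4 and 25.1 in the controls, against 14.4, 11.2, 7.24 and 37.9 with CTCF. Its highest value was in CTCF array 4 and its lowest values in CTCF arrays 1 to 3, so the groups overlapped. The log2 difference was -0.33 ± 0.21, or 0.10 inside the smaller set and -0.62 inside the larger. SPINK2 read 4.37 and 11.6 in the controls, against 10.3, 5.28, 4.91 and 7.47 with CTCF, below the array median throughout, with overlapping groups and a log2 difference of -0.09 ± 0.17.

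SERPINA1, for alpha-1-antitrypsin, had 4 probe sets that did not behave alike. Probe set 211429_s_at read 188 in empty vector array 1 and 105 in CTCF array 4, the 2 arrays of the smaller set. It read 4.90 in empty vector array 2 and 7.72, 6.56 and 3.05 in CTCF arrays 1 to 3, so its values followed the array set and not the group. The smaller set was higher by 3.29 on the log2 scale in the empty vector arrays and by 2.48 in the CTCF arrays, and 2.87% of all tested probe sets were higher there by at least 4-fold in both groups. Its group difference was -0.27 ± 0.21, or -0.75 inside the smaller set and 0.05 inside the larger.

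The other SERPINA1 probe sets lacked a split of this size. Probe set 202833_s_at, designed on the RefSeq transcript of SERPINA1, read 6.34 and 1.81 in the controls, against 1.97, 1.46, 4.12 and 6.07 with CTCF. Its log2 difference was 0.03 ± 0.12. These low values were also highest on the 2 arrays of the smaller set, by 0.33 in the empty vector and 0.26 in the CTCF arrays on the log2 scale. Probe set 211428_at read 3.19 and 3.47 against 1.00 to 12.6, with 0.16 ± 0.17. Probe set 230318_at read 42.9 and 32.6 in the controls, against 32.6, 8.37, 26.1 and 30.7 with CTCF, a log2 difference of -0.37 ± 0.29. Its groups met within rounding, and it is the only one of the 6 inhibitor probe sets counted as separate, beside 13.2% of all probe sets in either direction. None of the 6 inhibitor probe sets differed by 2-fold in the fit, beside 2.56% of all, and their median was -0.18, against -4.57 for the 5 trypsinogen probe sets.

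Genes that act around trypsin were examined in 4 lists, with 1 probe set per gene and these 8 genes left out. Of 178 measured genes, 4 fell and 0 rose at an adjusted p under 0.05 in limma, which is 2.25%, near the 2.57% of all 19775 genes (1.95% lower and 0.622% higher). The 4 were TFPI2, F2RL3, TMPRSS4 and PRSS16, and the median log2 difference over the 178 genes was -0.01, as against -0.02 over all genes. Leaving out either control array, or any of CTCF arrays 2, 3 and 4, gave 0. Without CTCF array 1 it was 3, and without the array set block 0. In those leave-one-out fits that gave 0, the calls over all 54613 probe sets also dropped to between 0 and 8, so the zeros say nothing of these genes in particular. With 1 array left out the log2 differences ran from -4.72 to -4.47 for TFPI2, from -1.45 to -1.38 for TMPRSS4, from -1.44 to -1.24 for F2RL3 and from -1.08 to -0.78 for PRSS16. Over the other alternatives the log2 differences ran wider, from -5.71 to -3.30 for TFPI2 and from -1.61 to -0.89 for TMPRSS4. They ran from -2.18 to -0.69 for F2RL3, its values with pseudocounts of 1 and 64, and from -1.05 to -0.68 for PRSS16. The count of calls over these alternatives was 0 to 13.

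Among 26 measured genes for proteases that cleave trypsinogen and for proteins of acinar cells, 0 passed in limma. Of them 2 had an unadjusted p under 0.05 in limma, and the median was 0.00 on the log2 scale. CTSL, for the lysosomal protease cathepsin L, was the brightest and read 3048 and 3238 in the controls, against 2367, 2213, 2216 and 2018 with CTCF. The groups did not overlap, but the log2 difference of -0.54 ± 0.11 did not pass (limma adjusted p = 0.0789). Next to it, chosen for their roles after their values were seen, CTSB, for cathepsin B, which can activate trypsinogen, had -0.30 ± 0.14 (limma adjusted p = 0.358). TMPRSS15, for enteropeptidase, had 0.06 ± 0.15 (limma adjusted p = 0.889) and values of 38.0 to 56.9 over the 6 arrays.

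The pancreatic acinar markers, the cells best known for trypsinogen, gave no sign of a difference beside the trypsinogens. Of 12 listed markers 7 were measured, among them CPA1, CEL and PNLIP, and 0 passed in limma, nor at an unadjusted p under 0.05. Their summed intensity was 146 to 180 in the controls, against 130 to 199 with CTCF. 0 of the 7 lay above the array median on every array, PNLIP read 1.09 to 7.66, and the highest value of any was 53.3.

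Of 70 other serine proteases and related proteins, not all of them trypsin-like, 2 fell and 0 rose. TMPRSS4, a membrane-bound serine protease, read 131 and 279 in the controls, against 107, 85.9, 92.8 and 39.3 with CTCF. It fell by 1.41 on the log2 scale (SE 0.13, limma adjusted p = 0.0211), and by the same 1.41 within each array set. PRSS16, a serine protease of the thymus, fell by 0.96 (SE 0.13, limma adjusted p = 0.0381), from 177 and 304 to 131, 148, 129 and 95.8. Neither call held without the array set block (limma adjusted p = 0.679 and 0.600), and with 1 array left out adjusted p was 0.0419 to 0.398 for TMPRSS4, under 0.05 only without CTCF array 1, and 0.0590 to 0.439 for PRSS16.

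Of 62 other protease inhibitors and related proteins, not all of them inhibitors of serine proteases, 1 fell and 0 rose. TFPI2, a Kunitz-type inhibitor of trypsin and plasmin, read 566 and 835 in the controls, against 10.4, 27.9, 27.9 and 6.07 with CTCF. It fell by 4.60 on the log2 scale (SE 0.25, limma adjusted p = 0.00666), a difference of the size seen for the trypsinogens. Without the block its adjusted p in limma was 0.0706, and with 1 array left out it was 0.0219 to 0.340, under 0.05 only without CTCF array 1. Its second probe set (209277_at) fell by 3.94 (limma adjusted p = 0.00477). With 1 array left out that probe set had 0.0219 to 0.298, under 0.05 without CTCF array 1 and without CTCF array 3. Its paralog TFPI, the inhibitor of the tissue factor pathway, named after its values were seen, had the opposite sign. TFPI read 1871 and 2113 in the controls, against 5281, 3230, 3182 and 4932 with CTCF, a log2 difference of 1.06 ± 0.27 that did not pass (limma adjusted p = 0.115). The difference between TFPI and TFPI2 was not tested.

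Of 20 genes for the other protease-activated receptors and their signalling partners, 1 fell and 0 rose, with a median of -0.19. F2RL3, for the thrombin receptor PAR4, read 113 and 45.2 in the controls, against 6.97, 6.18, 6.58 and 38.4 with CTCF. The smaller array set was the higher in both groups. It fell by 1.36 on the log2 scale (SE 0.12, limma adjusted p = 0.0194), with -1.24 and -1.44 within the smaller and larger sets. Its adjusted p was 0.545 without the block and 0.0428 to 0.354 with 1 array left out, under 0.05 only without CTCF array 1. F2R, for the thrombin receptor PAR1, had -0.48 ± 0.25 (limma adjusted p = 0.411) and F2RL2, for PAR3, 0.19 ± 0.16 (limma adjusted p = 0.612), both chosen after their values were seen. A second F2RL2 probe set had -0.15 ± 0.13 (limma adjusted p = 0.639), and both F2RL2 probe sets read at most 14.7 on every array.

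**Figure D3:**
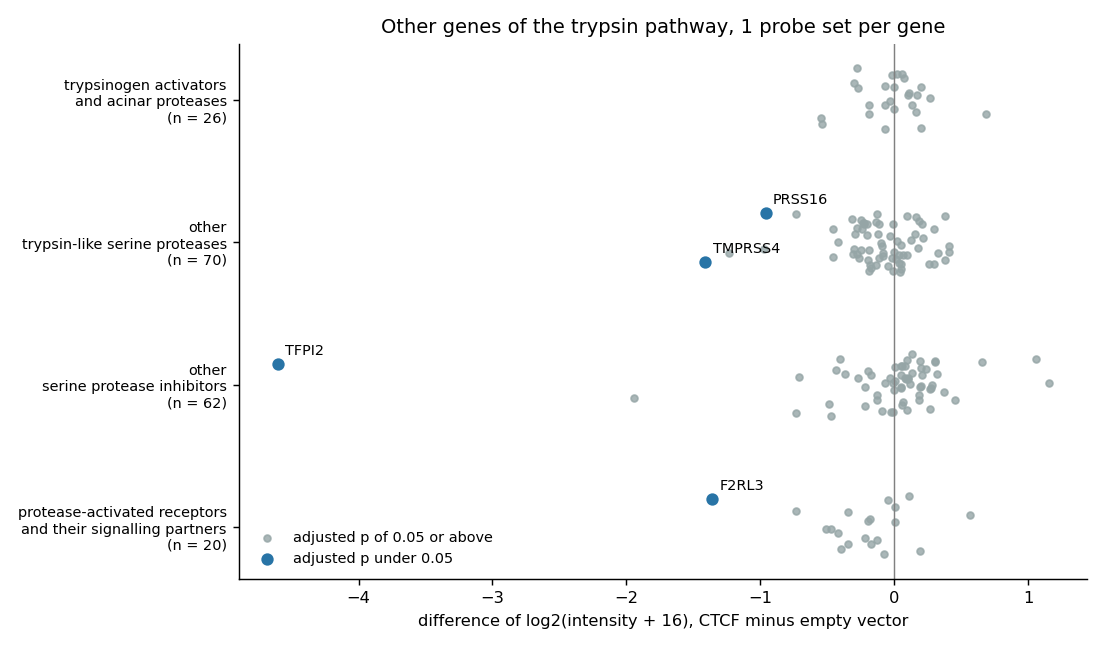
Difference of log2(intensity + 16), CTCF minus empty vector, for each measured gene of the 4 lists around trypsin (26, 70, 62 and 20 genes), 1 point per gene, with genes at an adjusted p under 0.05 in blue. TFPI2 at -4.60 stands apart from the rest of its list, and PRSS16, TMPRSS4 and F2RL3 lie between -1.41 and -0.96.

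Trypsinogens sit among T-cell receptor beta segments, and the genes directly beside PRSS1 and PRSS2 also read lower in the CTCF cells. On the brightest probe set of each gene the difference was smaller than on any of the 5 trypsinogen probe sets. None passed the test on its brightest probe set, while 2 of the 3 probe sets of TRBC1 did. Going out from PRSS1 and PRSS2, the nearest measured gene on one side was TRBV27, a variable segment of the receptor, and on the other TRBC1, a constant region, followed by EPHB6, a receptor of the ephrin family that lacks kinase activity. EPHB6 read 457 and 755 in the controls, against 296, 156, 154 and 186 with CTCF. Its log2 difference was -1.62 ± 0.31 (limma adjusted p = 0.0678). TRBV27 had nearly the same profile, with 347 and 559 against 237, 108, 104 and 140, and -1.62 ± 0.36 (limma adjusted p = 0.0892). The groups did not overlap for either gene, and CTCF array 1 was the highest CTCF array of both.

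The probe set of TRBC1 with the highest mean (213193_x_at) read 424 and 311 in the controls, against 174, 134, 140 and 251 with CTCF, a log2 difference of -0.88 ± 0.15 (limma adjusted p = 0.0576). Its other 2 probe sets fell by 2.16 and by 1.51 (limma adjusted p = 0.0401 and 0.0442), calls that held with 1 array left out only without CTCF array 1 and not without the array set block. The larger of these falls exceeded that of the second PRSS3 probe set, which had -1.92. The constant regions TRBC1 and TRBC2 are near-identical, so which of them was read is uncertain. TRBV27, TRBC1 and its probe sets were singled out after their values were seen.

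Farther out the differences were smaller. The other neighbours of PRSS1 and PRSS2 ran from -0.60 for KEL, a red cell surface protease, to 0.54 for PRSS59P. The median of the 20 neighbours was -0.02, equal to that of all genes. Among these 20 neighbours 0 passed in limma and 5 had an unadjusted p under 0.05, beside 21.4% of all genes. Around PRSS3 on chromosome 9, 0 of 20 neighbours passed, 4 had an unadjusted p under 0.05 in limma, and the genes on either side had opposite signs. ANXA2P2 had 0.41 ± 0.13 (limma adjusted p = 0.194) and UBE2R2, for a ubiquitin-conjugating enzyme, -0.52 ± 0.14 (limma adjusted p = 0.139). AQP3, a water and glycerol channel singled out after its values were seen, had 0.70 ± 0.12 (limma adjusted p = 0.0512).

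**Figure D4:**
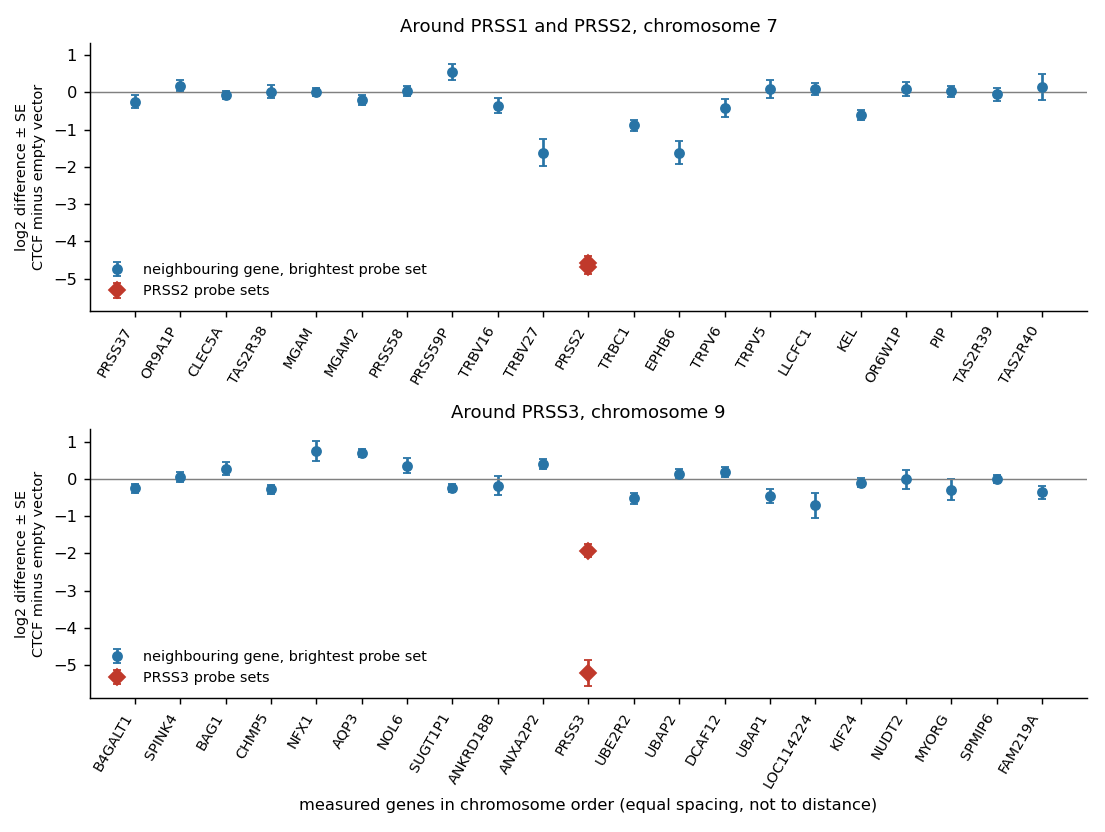
Log2 difference ± SE, CTCF minus empty vector, of the 10 nearest measured genes on each side of PRSS1 and PRSS2 (top) and of PRSS3 (bottom), in chromosome order at equal spacing, with the PRSS2 or PRSS3 probe sets as red diamonds. TRBV27 at -1.62, TRBC1 at -0.88 and EPHB6 at -1.62 are the lowest neighbours in the top panel, and the neighbours of PRSS3 lie between -0.71 and 0.74.

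Around the 4 other genes, SPINK1, SPINK2, SERPINA1 and F2RL1, 0 of 20 neighbours of each passed, and their medians were 0.02, 0.02, -0.07 and -0.01. The brightest of them were LARS1 at -0.40 ± 0.14, PAICS at 0.04 ± 0.12, DDX24 at 0.34 ± 0.12 and TBCA at -0.17 ± 0.12. Over the 120 neighbours in all, 0 passed in limma and 20, or 16.7%, had an unadjusted p under 0.05, against 21.4% of all genes. Median centring, a pseudocount of 64, dropping dim probe sets, fitting a variance trend and averaging each gene's probe sets gave 4 to 8 instead of 0.

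The receptor is a T-cell product, so T-cell markers were read beside the locus, with TRBC1 among them. Their summed intensity over 9 measured markers was 1790 to 2003 in the controls, against 926 to 1078 with CTCF, and 1 of the 9 passed. CD3D and TRBC1 carried that difference, since the other 7 markers summed to 161 to 226 in the controls and 128 to 192 with CTCF, which overlap. The 1 that passed was CD3D, a chain of the T-cell receptor complex, which fell by 1.04 on the log2 scale (SE 0.12, limma adjusted p = 0.0250, and 0.0458 to 0.398 with 1 array left out, under 0.05 only without CTCF array 1). Without the array set block its adjusted p in limma was 0.167. Meanwhile CD2 read 32.9 to 46.4 and LCK 1.00 to 30.2 over the 6 arrays. The part of these markers in the trypsinogen values was not tested.

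Among 19769 other genes, the 5 whose profile over the 6 arrays was most like that of the first PRSS2 probe set were COL1A2, TFPI2, DLK1, ASS1 and P2RX1. Likeness was the root mean square difference of log2(intensity + 16) after each profile was centred on its own mean, and it was 0.25, 0.35, 0.47, 0.62 and 0.74 in that order. COL1A2, a chain of type I collagen, read 1572 and 1808 in the controls, against 102, 107, 89.1 and 60.5 with CTCF. Like the first PRSS2 probe set, COL1A2 was lowest in CTCF array 4, as were TFPI2 and DLK1. ASS1 was lowest in CTCF array 2 and P2RX1 in CTCF array 3. COL1A2 and TFPI2 lie on chromosome 7, DLK1 on 14, ASS1 on 9 and P2RX1 on 17. These genes were found with the group difference that chose the trypsinogens, so the likeness is a description over 6 arrays of 2 groups.

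**Figure D5:**
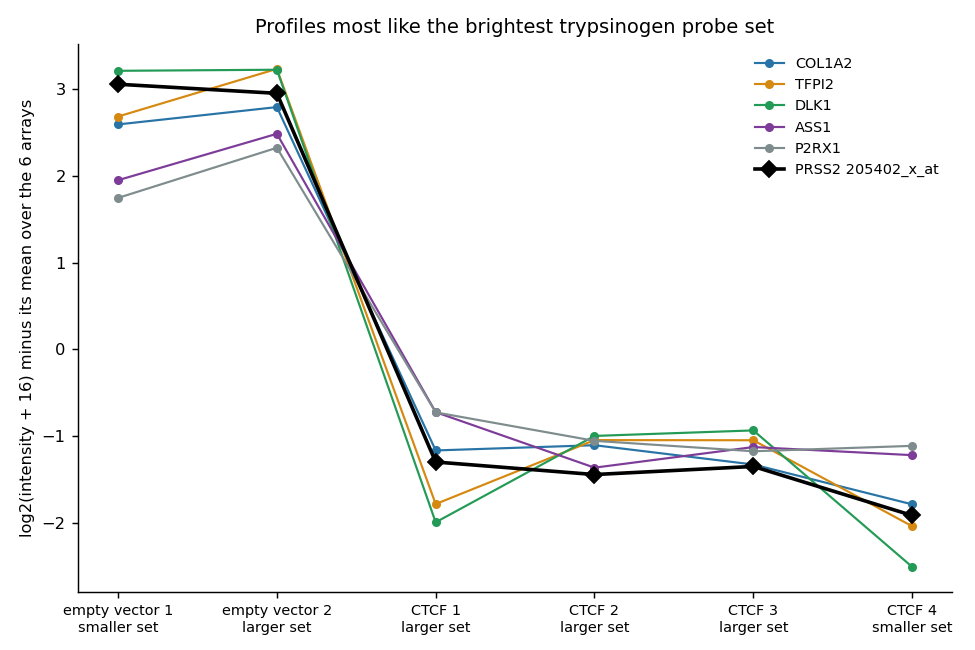
Log2(intensity + 16), centred on its mean over the 6 arrays, for the first PRSS2 probe set (black) and the 5 genes with the most similar profile, by array and array set, with lines that only join the points of a gene. All 6 profiles are above 0 in both empty vector arrays and below 0 in the 4 CTCF arrays.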

How the data were processed

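Biotin-labelled RNA of 6 K562 samples was measured on U133 Plus 2.0 arrays of Affymetrix, per the labels' protocols. The authors deposited processed intensities, linear, with 1 value for each probe set. How they were normalized is not given in the sources used here. A second deposited table, of the authors' selected probe sets, holds group mean intensities and signed fold changes with bounds, used as scores of the authors.

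Groups were taken from sample titles. Intensities were analysed as log2(value + 16) in limma 3.58.1 (R 4.3.3), with the array set as a block, 2-sided, over 54613 probe sets without the 62 controls, adjusted by Benjamini-Hochberg at 0.05. The fold changes understate changes of low values. The number of arrays limits the precision. In simulated arrays of 54613 probe sets, with changes placed among the brighter ones, this fit of CTCF against empty vector recovered 65% of 100 2-fold and 100% of 100 4-fold changes with 13 false among 178 calls, and 0% without the block. The simulation kept the array set term, which favours the block.

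Names came from the platform annotation in GEO (41091 with 1 gene, 1801 with several, 11721 not listed), and 41037 were matched to RefSeq (GRCh38.p14). A gene's brightest probe set was used. Neighbours were the 10 nearest measured genes on each side. PRSS3P2 was left out of that order because the table places it outside the main chromosome sequence. Promoters were aligned with Biopython 1.88.

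The genes, lists, block and tests were chosen with earlier results of these data known. Named outside these genes were CTCF, up to 4 called genes per list or neighbourhood (the brightest where none was called) and the 5 nearest profiles. Any other gene with a value was named after its values were seen, among them KEL, PRSS59P, UBE2R2, ITIH5, SERPINI1, KLK1 and SERPINB1. Alternatives were no block, replicate number as a block, quantile normalization, median centring, other pseudocounts, a filter on dim probe sets, a variance trend, gene means and leaving out each array.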

Additional observations from a re-analysis of the deposited data

Results flagged for a closer look

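In each group of 4 CTCF arrays, a value was singled out where its gap to the nearest other array took up more of the log2 range than Dixon's 95% critical value allows. Of 28 probe sets examined 3 were singled out, and chance alone would single out about 1 in 20 groups. All 3 concern CTCF array 4, the only CTCF array of the smaller array set. The first PRSS3 probe set (207463_x_at) read 14.24 there and 58.2 to 69.6 in the other CTCF arrays. The SERPINA1 probe set 211429_s_at read 105.2 there and 3.05 to 7.72 in the others, while the empty vector array of the same set read 188. F2RL3 read 38.44 there and 6.18 to 6.97 in the others, beside 113 in the empty vector array of the same set. The PRSS3 probe set has no such match, since the empty vector array of the smaller set read 2169 and that of the larger set 1881. The part of the array set in these values was not tested.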

How the results depend on the processing

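The 5 trypsinogen probe sets stayed lower by at least 2-fold without the array set block, with the replicate number as a block, after quantile normalization or median centring, with pseudocounts of 1 and 64 and with each array left out. With the replicate number as a block the count over the 12 probe sets was 6. The filter on dim probe sets, the variance trend and gene means were not run for these probe sets. Over the alternatives run their log2 differences ran from -4.97 to -4.08 for 205402_x_at, from -4.94 to -4.08 for 216470_x_at, from -6.18 to -4.29 for 207463_x_at, from -5.01 to -3.87 for 215395_x_at and from -2.44 to -1.57 for 213421_x_at. Calls over all probe sets depended on the fit. Of 1017 with the block, 6 were left without it, 0 with the replicate block (replicate number in place of the array set), 2 with a pseudocount of 1 and 0 to 762 with 1 array left out. A pseudocount of 64 gave 2140, leaving out dim probe sets 2642 (fewer were tested) and a variance trend 2567. The share of calls that were higher was 28.9% as deposited and 42.3% of 1200 after quantile normalization. The 4 calls among the genes around trypsin became 0 without the array set block, 0 with the replicate block, 0 with a pseudocount of 1, 8 with median centring, 10 with a pseudocount of 64, 11 without dim probe sets, 13 with a variance trend, 12 with gene means and 0 to 3 with 1 array left out. The 0 calls among neighbours became 4 with median centring, 5 with a pseudocount of 64, 8 without dim probe sets, 6 with a variance trend and 7 with gene means, and stayed at 0 with 1 array left out. The cause of these shifts was not tested further. Deviations from the group means of arrays with the same replicate number correlated at -0.70 for number 1 and 0.76 for number 2. Whether replicate numbers pair the arrays cannot be decided from this. The deviations of the 2 empty vector arrays mirror each other, and CTCF arrays 1 and 2 are both of the larger array set.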

Other observations

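Several other protease and inhibitor genes split by array set, as the SERPINA1 probe set 211429_s_at did. They were chosen after their values were seen. A2M, for the broad protease inhibitor alpha-2-macroglobulin, read 3872 and 2879 on the 2 arrays of the smaller set, against 268 to 428 on the 4 others, with a group difference of -0.44 ± 0.19 on the log2 scale (limma adjusted p = 0.310). CTSD, for the lysosomal protease cathepsin D, read 36.5 and 34.1 on those 2 arrays, against 209 to 288 on the others. CTSB read 2676 and 2443, against 990 to 1426.

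Other genes around trypsin had group differences that did not pass, and those named here were chosen after their values were seen. ITIH5, for a heavy chain of inter-alpha-trypsin inhibitors, had a log2 difference of -1.94 ± 0.33 (limma adjusted p = 0.0525), and SERPINI1, for neuroserpin, 1.16 ± 0.24 (limma adjusted p = 0.0798). KLK1, for tissue kallikrein, had -0.97 ± 0.17 (limma adjusted p = 0.0560). SERPINB1, an inhibitor of neutrophil proteases, read 1401 and 1399 in the controls, against 789 to 914 with CTCF, with -0.71 ± 0.12 (limma adjusted p = 0.0575), while 1 of its 4 probe sets passed.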
